A study of Mus musculus with 9 samples.

Results

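Neuropeptides of the hypothalamus and their receptors were examined as a group of 60 genes, listed by name: 25 peptide precursors, 34 receptors and 1 binding protein, in 17 signalling systems. A differentially methylated region (DMR) was counted to a gene when it overlapped the gene body or lay within 10 kb of it. Of the 12949 DMRs, 18 were found at 15 of the 60 genes. The DMRs came from methylated DNA immunoprecipitation and sequencing (meDIP-seq), in which an antibody against methylated cytosine pulls down methylated fragments, so that more reads over a region stand for more methylated DNA there. The mice were male C57/Bl6 pups. In modified maternal separation (MMS), pups spent 1.5 h of each day away from their mother between postnatal day (P) 4 and P6, on a heating pad and turned on their backs, and control pups were littermates without MMS. The hypothalamus was collected at P6 straight after the last separation, and tissue of 10 animals per group was pooled into 3 libraries for control and 3 for MMS. The values are the authors' group means on a log2 scale of normalised reads. They carry no value for single libraries, so no SD, test or depth of a library stands behind any difference given below other than the authors' own call, which lists a region at a false discovery rate of 0.05 or less. DNA of the whole tissue was measured, in which a change within cells and a change in the mix of cell types cannot be told apart, and the labelled tissue could not be checked against marker genes in these data.

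Neuropeptides are cut from larger precursor proteins, stored in dense-core vesicles and released to act on receptors that are nearly all coupled to G proteins. In the hypothalamus they carry the orders for stress hormone release, feeding, growth, reproduction and sleep. Corticotropin-releasing hormone (CRH) starts the pituitary-adrenal stress response through CRHR1, and vasopressin acts beside it through AVPR1B on the pituitary. Methylation of cytosine, mostly at CpG sites, is read differently by place: at promoters it is classically tied to low transcription, whereas gene bodies are commonly methylated in transcribed genes.

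Sequences are shown first for the regions in a promoter or exon, for the region of the largest difference in each direction and for the CRH receptors, in the mm10 build and on the strand of each gene, 5′ to 3′, as the 300 bases about the centre of the DMR with CpG sites in capitals. The DMR in the promoter of Tacr3, the receptor of neurokinin B, was the only one of the 18 with its centre in a promoter (1000 bp before to 100 bp after a start). The window at chr3:134828139-134828438 on the plus strand held 6 CpG sites.
Tacr3 promoter: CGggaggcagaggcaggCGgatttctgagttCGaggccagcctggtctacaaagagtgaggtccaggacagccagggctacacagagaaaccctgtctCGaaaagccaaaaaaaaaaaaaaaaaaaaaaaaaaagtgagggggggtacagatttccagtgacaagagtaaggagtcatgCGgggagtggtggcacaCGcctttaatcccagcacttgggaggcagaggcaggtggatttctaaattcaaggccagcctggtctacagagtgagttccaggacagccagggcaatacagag
Trh encodes the precursor of thyrotropin-releasing hormone, and its gene body held the only DMR of the 18 that reached an exon. The window at chr6:92243439-92243738 on the minus strand begins with 67 exonic bases and goes on with 233 bases that are not exonic.
Trh gene body: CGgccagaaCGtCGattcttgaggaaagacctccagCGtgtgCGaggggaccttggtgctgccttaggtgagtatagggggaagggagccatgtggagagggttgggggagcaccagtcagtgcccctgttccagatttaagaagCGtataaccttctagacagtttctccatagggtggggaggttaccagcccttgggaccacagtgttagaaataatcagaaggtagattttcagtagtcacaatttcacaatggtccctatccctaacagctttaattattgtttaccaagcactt
The DMR upstream of Trh had the largest difference among those higher in MMS, and its window at chr6:92251498-92251797 on the minus strand held 6 CpG sites.
Trh upstream: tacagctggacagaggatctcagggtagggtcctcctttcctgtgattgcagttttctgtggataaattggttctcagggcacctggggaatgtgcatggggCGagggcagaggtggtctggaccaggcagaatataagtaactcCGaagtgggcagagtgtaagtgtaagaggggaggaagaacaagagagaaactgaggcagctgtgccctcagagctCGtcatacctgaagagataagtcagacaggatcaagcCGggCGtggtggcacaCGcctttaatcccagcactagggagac
The DMR in Npy5r, a receptor of neuropeptide Y, had the largest difference among those higher in control. Its window at chr8:66686338-66686637 on the minus strand held 1 CpG site and opens with a long run of CA repeats.
Npy5r intron: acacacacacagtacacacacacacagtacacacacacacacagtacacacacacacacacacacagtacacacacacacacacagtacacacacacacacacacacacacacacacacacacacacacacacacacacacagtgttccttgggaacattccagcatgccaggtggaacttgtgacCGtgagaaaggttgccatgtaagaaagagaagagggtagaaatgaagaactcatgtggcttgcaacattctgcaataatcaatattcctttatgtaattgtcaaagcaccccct
The windows of the CRH receptors, chosen after their values were seen because the receptors differed in opposite directions, lie at chr11:104165767-104166066 on the plus strand (Crhr1) and chr6:55126825-55127124 on the minus strand (Crhr2).
Crhr1 intron: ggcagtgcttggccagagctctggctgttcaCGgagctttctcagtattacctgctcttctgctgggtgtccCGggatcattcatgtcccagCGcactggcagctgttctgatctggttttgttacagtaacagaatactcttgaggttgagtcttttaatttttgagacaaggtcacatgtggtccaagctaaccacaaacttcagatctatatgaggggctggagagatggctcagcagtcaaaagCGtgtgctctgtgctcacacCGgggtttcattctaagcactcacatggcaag
Crhr2 intron: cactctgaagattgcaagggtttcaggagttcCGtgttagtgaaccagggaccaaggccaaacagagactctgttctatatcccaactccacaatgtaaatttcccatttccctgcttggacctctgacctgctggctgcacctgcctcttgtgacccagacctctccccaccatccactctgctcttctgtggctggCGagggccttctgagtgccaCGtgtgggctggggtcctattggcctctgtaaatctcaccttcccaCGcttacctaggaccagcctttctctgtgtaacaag

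The 15 genes made up 25.0% of the 60, beside 28.6% of all 21951 protein-coding genes with a DMR in the body or within 10 kb. In the gene body alone, 8 of the 60 (13.3%) had a DMR, beside 18.9% of all protein-coding genes. Both backgrounds are over genes of all lengths, and the 60 genes are shorter than most, so the shares are also given by gene length. Peptide precursors had a DMR in 4 of 25 genes (Trh, Agrp, Cck and Ghrh), receptors in 10 of 34, and the binding protein Crhbp had 1. By system, 11 of 17 had at least 1 DMR. The systems hold 1 to 6 genes of unlike lengths, and no share over comparable groups of other genes was computed. Of the 18 DMRs, 8 (44.4%) were higher in MMS and 10 were higher in control, whereas 62.6% of all DMRs in the table were higher in MMS. The share changed with the distance allowed, to 22.2% (2 of 9) in gene bodies alone and 61% (36 of 59) within 50 kb. The plot of group means shows every region.

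**Figure D1:**
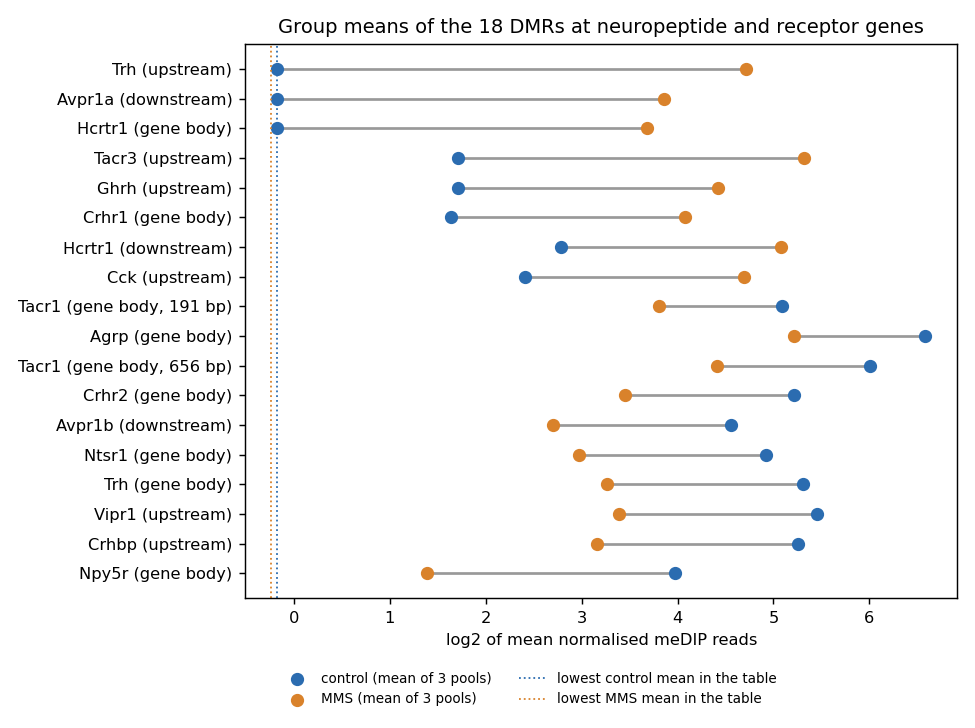
Group means of the 18 DMRs, with the log2 of mean normalised reads on the x axis and 1 line for each DMR joining control (blue) and MMS (orange). The dotted lines mark the lowest mean of each group in the whole table. The control mean sits on that line in 3 DMRs (upstream of Trh, downstream of Avpr1a and in Hcrtr1), and no DMR higher in control has its MMS mean there.

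CRH signalling held 3 of the 18 DMRs, at 3 of its 6 genes, beside 28.6% of all protein-coding genes. Crhr1, Crhr2 and Crhbp had them, with gene lengths of 13.6 to 43.0 kb. From 10 to 50 kb, 26.3% of all protein-coding genes had a DMR. Crh, Ucn and Ucn3 are 0.767 to 4.66 kb long, beside 14.5% of all genes under 10 kb with a DMR. No share was tested. Crhr1, the main receptor of CRH on the pituitary corticotroph, had a DMR of 626 bp in intron 4 of 13 exons, at chr11:104165604-104166229, with its centre 33061 bp from the start of the gene. Its log2 mean was 1.64 in control (3.12 normalised reads) and 4.08 in MMS (16.9), a difference of 2.44. Crhr2, the receptor that prefers the urocortins, differed the other way. Its DMR of 801 bp at chr6:55126574-55127374 had 5.21 in control (37.0 reads) and 3.45 in MMS (10.9), a difference of -1.76. That region was intronic in 4 of 9 Crhr2 transcripts, in intron 1 of the longest of these (13 exons), and its centre stood at -9061 bp from the start of the principal transcript. Crhbp encodes a secreted protein that binds CRH and urocortin and keeps them from their receptors. A DMR of 908 bp lay 8280 bp upstream of it at chr13:95453204-95454111, with 5.26 in control (38.3 reads) and 3.16 in MMS (8.94), a difference of -2.10. Of the ligands, Crh, Ucn and Ucn3 had no DMR within 10 kb, and the nearest one to Crh lay 332967 bp away. Farther out, 2 regions at 15981 and 45274 bp from Ucn3 were both higher in MMS, with differences of 2.61 and 1.75. Within 10 kb, Crhr1 was the only CRH gene with more reads in MMS, and its nearest protein-coding start was that of Sppl2c, 20411 bp away.

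Both vasopressin receptors with a DMR had it downstream, in opposite directions. Avpr1a is the receptor behind most central effects of vasopressin on social behaviour. Its DMR of 632 bp at chr10:122459052-122459683 lay 5600 bp past the gene, with a control mean of -0.17 (0.889 reads) and an MMS mean of 3.86 (14.5). This is the lowest control mean of the whole table, so the difference of 4.03 depends on where that lowest value was set. Avpr1b, the pituitary receptor, had a DMR of 337 bp at chr1:131615768-131616104, 3768 bp past the gene. It was higher in control, 4.56 (23.6 reads) against 2.70 in MMS (6.50), a difference of -1.86. Avp, Oxt and Oxtr had none within 10 kb, and the nearest DMRs to Avp and Oxt lay 242188 and 237741 bp away.

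Trh was the only peptide gene with 2 DMRs, and they differed in opposite directions. TRH drives thyrotropin release from the pituitary and raises energy use. The DMR in the gene body, 1366 bp at chr6:92242906-92244271, was the widest of the 18 and covered exon 2 and part of exon 3 of 3, with 428 coding bases and 8 bases of UTR. It had 5.31 in control (39.7 reads) and 3.27 in MMS (9.65), a difference of -2.04. The upstream DMR of 383 bp at chr6:92251456-92251838 lay 6806 bp before the gene, with -0.17 in control (0.889 reads) and 4.71 in MMS (26.2). Its difference of 4.88 stood at the 96.7th percentile by size among all DMRs higher in MMS, and its control mean was again the lowest one. The TRH receptor gene Trhr had no DMR.

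Of the neuropeptide Y and melanocortin genes, the receptor gene Npy5r and the peptide gene Agrp each had 1 DMR, both higher in control. The Npy5r DMR of 634 bp at chr8:66686171-66686804, in intron 1 of 2 exons, had 3.97 in control (15.7 reads) and 1.39 in MMS (2.62). Its difference of -2.58 stood at the 81.8th percentile by size among DMRs higher in control. The same region lies 10388 bp from the neighbouring Npy1r, just outside the 10 kb limit. Agrp encodes the agouti-related peptide, which blocks melanocortin receptors and raises food intake. Its DMR of 876 bp at chr8:105619095-105619970 had the highest control mean of the 18, 6.58 (95.7 reads), and 5.21 in MMS (37.0), a difference of -1.37. Its tie to Agrp rests on the gene model: only 1 of 3 GENCODE transcripts, which runs over 70.7 kb, reaches the region, the RefSeq span of Agrp ends 39250 bp from it, and it lies within Ripor1, whose start is the nearest at 14277 bp. Npy, Npy1r, Npy2r, Pomc, Mc3r, Mc4r, Cartpt, Penk and Pdyn had no DMR within 10 kb.

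Hcrtr1, the orexin receptor best known for reward drive, had 2 DMRs and was the only gene with 2 that were both higher in MMS. The DMR past the gene, 471 bp at chr4:130128841-130129311 with a gap of 906 bp, had 2.79 in control (6.92 reads) and 5.08 in MMS (33.8), a difference of 2.29. The DMR in intron 6 of 9 exons, 584 bp at chr4:130134370-130134953, had -0.17 in control (0.889 reads) and 3.68 in MMS (12.8), a difference of 3.85 that again sets MMS against the lowest control mean. Hcrt, the orexin precursor, and Hcrtr2 had none.

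Tachykinin receptors held 3 DMRs, 1 at the promoter of Tacr3 and 2 within Tacr1. NK3R, the product of Tacr3, is the receptor through which neurokinin B acts on the neurons that drive gonadotropin-releasing hormone. The Tacr3 DMR of 371 bp at chr3:134828103-134828473, with its centre 719 bp before the start, had 1.71 in control (3.27 reads) and 5.32 in MMS (39.95), a difference of 3.61 and the highest MMS mean among the 8 DMRs higher in MMS. As 90.3% of it is repeat and 2489 other places in the genome align to it over at least 100 bp at 95% identity, the origin of its reads is less sure than elsewhere, and the part this has in the difference was not tested. Tacr1, the substance P receptor, had 2 DMRs in intron 2 of 6 exons, both higher in control. The region of 191 bp at chr6:82453869-82454059 had 5.09 in control (34.1 reads) and 3.81 in MMS (14.0), a difference of -1.28, the smallest of the 18. The region of 656 bp at chr6:82456522-82457177 had 6.01 (64.45 reads) and 4.41 (21.3), a difference of -1.60. The peptide genes Tac1 and Tac2 had none.

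The remaining DMRs lay at Ntsr1, Vipr1, Cck and Ghrh. Ntsr1 encodes the high-affinity neurotensin receptor. Its DMR of 702 bp in intron 1 of 4 exons, at chr2:180524050-180524751, had 4.92 in control (30.3 reads) and 2.97 in MMS (7.835), a difference of -1.95. Vipr1 encodes a receptor for vasoactive intestinal peptide and PACAP. A DMR of 671 bp lay 6758 bp before it at chr9:121635288-121635958, with 5.45 in control (43.7 reads) and 3.39 in MMS (10.5), a difference of -2.06. That region is within Lyzl4, whose start is nearer at 6473 bp.

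Cck, the precursor of cholecystokinin, which signals satiety, differed in the other direction. Its DMR of 699 bp at chr9:121500166-121500864, 4472 bp before the gene, had 2.41 in control (5.32 reads) and 4.69 in MMS (25.8), a difference of 2.28. Ghrh, the releasing hormone of growth hormone, had a DMR of 317 bp at chr2:157357184-157357500, 9678 bp before the gene and so just inside the 10 kb limit. It had 1.71 in control (3.27 reads) and 4.42 in MMS (21.4), a difference of 2.71. All of that region is repeat, and 466 other places align to it. Just outside the limit lay a DMR 10193 bp from Ghsr, the ghrelin receptor gene, with 4.47 in control and 0.54 in MMS.

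The remaining genes without a DMR within 10 kb were Pmch, Mchr1, Ghsr, Sst, Sstr1, Sstr2, Sstr3, Sstr4, Gal, Galr1, Galr2, Galr3, Kiss1, Kiss1r, Gnrh1, Gnrhr, Nts, Ntsr2, Vip, Vipr2, Adcyap1, Adcyap1r1, Lepr, Glp1r and Cckbr. Among all 45 genes with none, 21 were peptide genes and 24 receptor genes. The nearest DMR lay 10.2 to 677 kb away, with a median of 61.4 kb.

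The 18 DMRs were also compared by place, with no test. In gene bodies, 7 of 9 were higher in control and 2 (Crhr1 and Hcrtr1) were higher in MMS, that is 22.2% higher in MMS, beside 62.0% of all DMRs in a protein-coding gene body. The 7 include the Agrp region, which lies outside the RefSeq span of Agrp, and both Tacr1 regions, which share an intron, and without Agrp the count was 6 of 8. The Crhr2 region among the 7 is reached by 4 of 9 Crhr2 transcripts. Its centre stood at -9061 bp from the start of the principal one. Outside gene bodies, 6 of 9 (66.7%) were higher in MMS, beside 62.1% of all DMRs within 10 kb of a gene and in no body. The 9 include the Vipr1 region, higher in control, which lies in the body of Lyzl4 and so is not in that background. Upstream, 4 of 6 were higher in MMS, and downstream 2 of 3. The plot of positions sets each region on its gene.

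**Figure D2:**
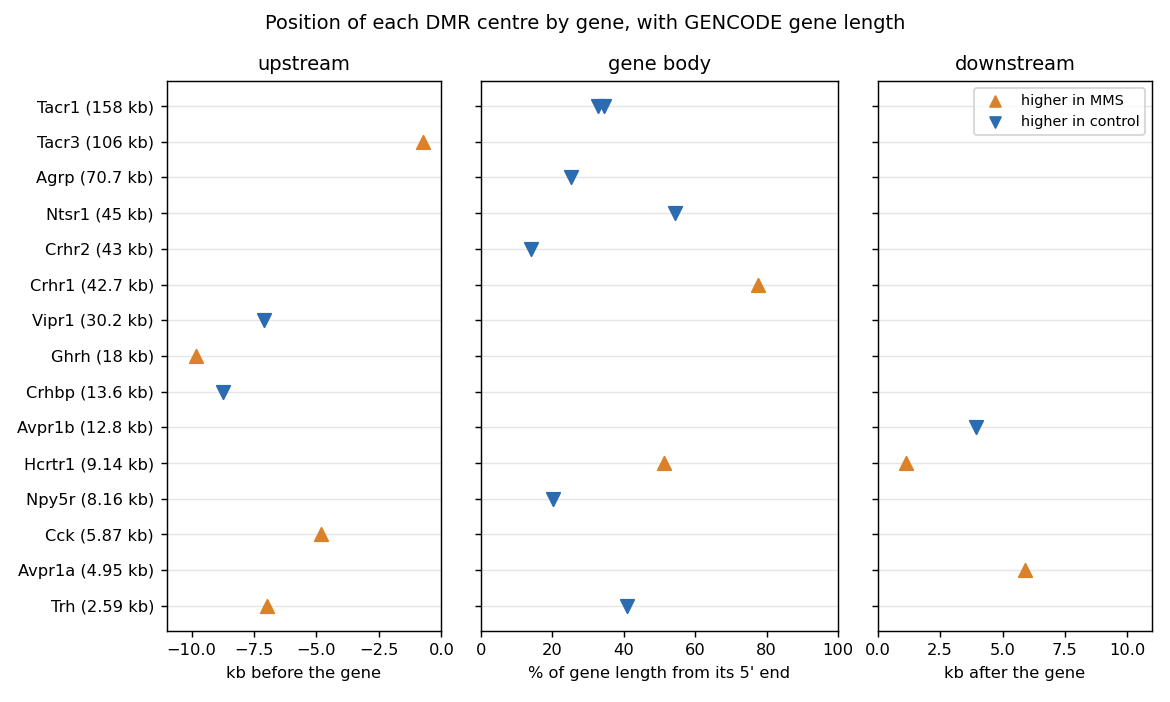
Position of the centre of each DMR by gene, in kb before the gene (left), in percent of gene length from the 5′ end (middle) and in kb after the gene (right), with gene length in brackets and genes ordered by length. Triangles pointing up (orange) are higher in MMS and those pointing down (blue) are higher in control, and 7 of the 9 in gene bodies point down.

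Among the 8 DMRs higher in MMS, the difference ran from 2.28 to 4.88 with a median of 3.16, beside 3.43 for all DMRs higher in MMS. Among the 10 higher in control it ran from -2.58 to -1.28 with a median of -1.91, beside -1.73. Control was at its lowest value in 3 of the 8 (37.5%), beside 52.7% of all DMRs higher in MMS. MMS was at its lowest value in 0 of the 10, beside 4.6% of all DMRs higher in control. The median width was 633 bp (191 to 1366 bp), beside 544 bp for the whole table. The plot of all DMRs shows these regions within the bulk of the table.

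**Figure D3:**
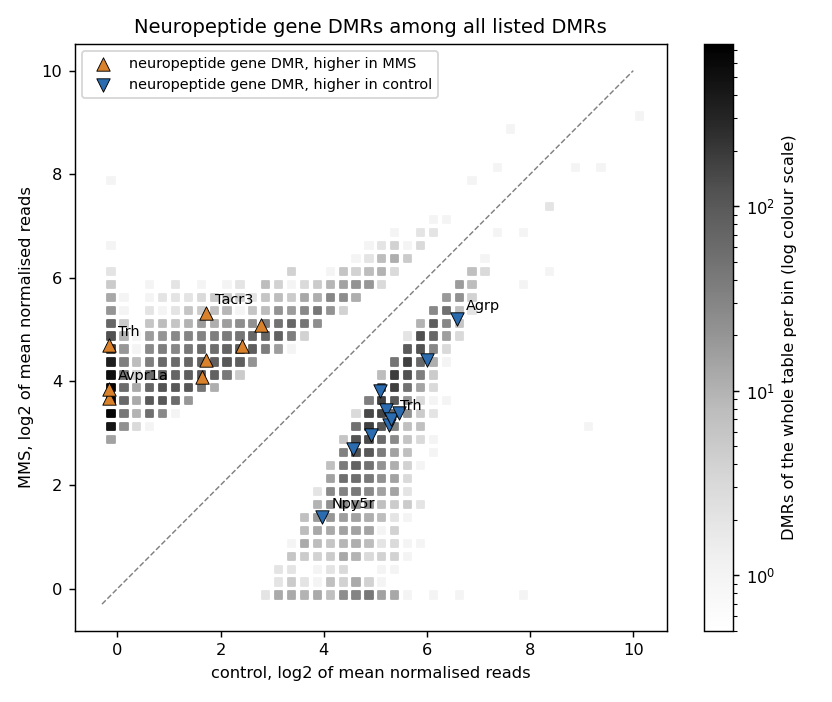
Mean of control (x axis) and MMS (y axis), both as log2 of normalised reads, for all 12949 DMRs in grey bins on a logarithmic colour scale, with the 18 DMRs as triangles and the line of equal means dashed. The 3 triangles at the left edge have their control mean at -0.17, and those below the line are the 10 higher in control.

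Longer genes more often had a DMR. The median length of the 60 genes was 7.6 kb, beside 17.4 kb for all protein-coding genes, and 18 kb for those with a DMR against 6.69 kb for those without. Under 10 kb, 5 of 38 (13.2%) had a DMR, beside 14.5% of all genes of that length. From 10 to 50 kb, 7 of 16 (43.8%) had a DMR, beside 26.3%. Over 50 kb, 3 of 6 (50%) had a DMR, beside 54.9%. The 3 include Agrp, whose GENCODE length of 70.7 kb rests on 1 of 3 transcripts. Its RefSeq length is 13.15 kb, and its DMR lies 39250 bp from that span. The medians above also use the GENCODE lengths. The length classes hold few of the 60 genes, and no share was tested.

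**Figure D4:**
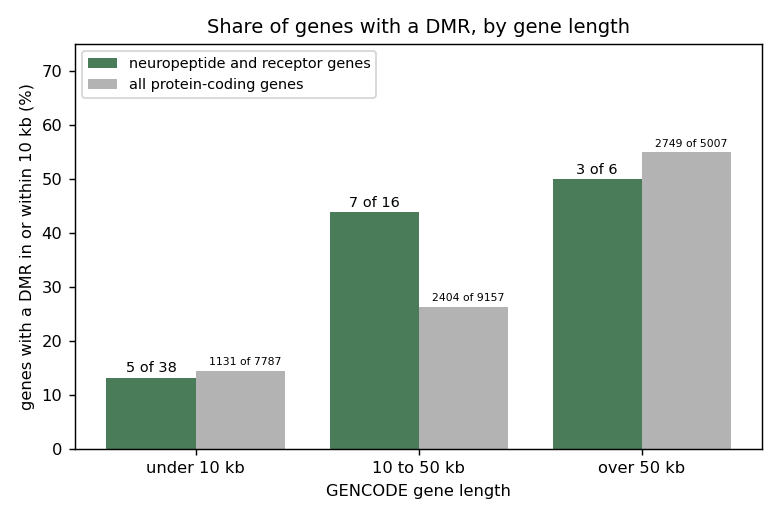
Share of genes with a DMR in the body or within 10 kb (y axis, percent) by gene length (x axis) for the 60 neuropeptide and receptor genes (green) and all protein-coding genes (grey), with counts above the bars. Shares rise with length in both, from 13.2% to 50% and from 14.5% to 54.9%. Agrp counts as over 50 kb by its GENCODE length, whereas its RefSeq length is 13.15 kb.

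CpG sites were sparse throughout, with a median of 1.51 per 100 bp (0.158 to 2.62), beside 1.32 in the whole table, and 24 sites at most in the Trh gene body. The median was 1.67 in regions higher in control, against 1.21 in the others, and in the whole table it was 1.43 against 1.26. The Avpr1a region had a single CpG in 632 bp, the fewest. The median repeat share was 40.2% in the 8 regions higher in MMS, against 19.9% in the other 10, and over all DMRs it was 20.4% against 21%. Of the 18, 13 had no other place in the genome that aligned over 100 bp at 95% identity. The other 5 were those of Tacr3, Ghrh, Npy5r (37 places), the Trh upstream region (1 place) and the shorter Tacr1 region (1 place), so 3 of the 5 were higher in MMS.

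**Figure D5:**
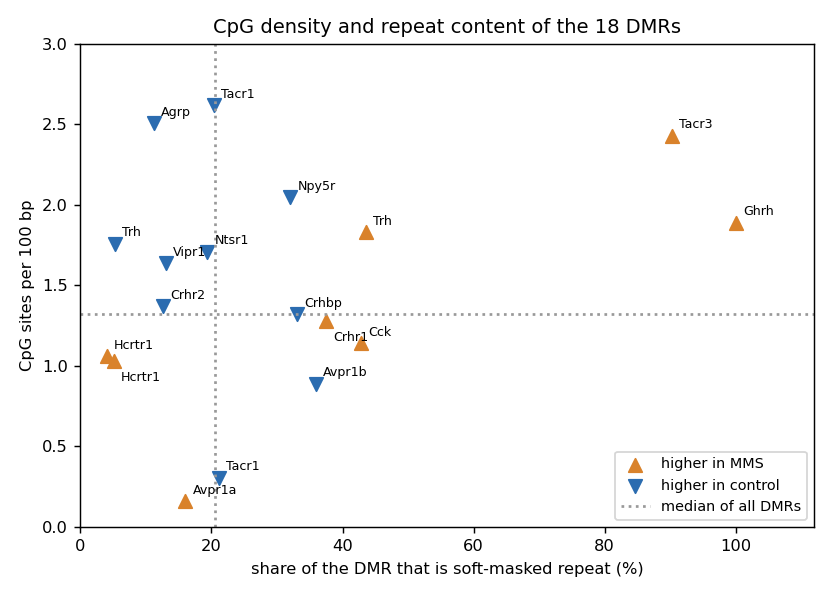
CpG sites per 100 bp (y axis) against the share of the DMR that is repeat in percent (x axis), with orange triangles higher in MMS and blue higher in control and the medians of all DMRs dotted. The Tacr3 and Ghrh regions sit at 90.3% and 100%, apart from the other 16.

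In the 300-base windows about the DMR centres, read on both strands, the cyclic AMP response half-site TGACG was in 2 of 18 (11.1%), beside 11.6% of all DMR windows. The E-box with a central CpG, CACGTG, was in 2 (11.1%: Crhr2 and Avpr1b), beside 5.58%, and the glucocorticoid receptor half-site AGAACA was in 5 (27.8%), beside 24.6%. These are matches of letters and not binding sites.

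A list of 86 further peptide, receptor and peptide-processing genes gave 30 (34.9%) with a DMR, beside 28.6% of all protein-coding genes. By length, 7 of 36 under 10 kb (19.4%) had one, 9 of 23 from 10 to 50 kb (39.1%) and 14 of 27 over 50 kb (51.9%), beside 14.5%, 26.3% and 54.9% of all genes of those lengths. Of their 43 DMRs, 30 (69.8%) were higher in MMS, beside 62.6% of the whole table. By role, 6 of 25 peptide genes, 14 of 39 receptor genes and 10 of 22 processing genes had one. In receptors 15 of 19 DMRs (78.9%) were higher in MMS, and in processing genes 11 of 18 (61.1%), which is near that share. None of these shares was tested. The only promoter DMR of the 86 genes was that of Gcgr, the glucagon receptor gene, at chr11:120529517-120529954, with -0.17 in control and 3.55 in MMS. The genes with the most were Ece1, Insr and Pcsk2, with 3 each, and 7 genes tied at 2 (Cadps2, Dpp4, Gcgr, Npsr1, Prep, Sort1 and Tacr2). Pcsk2 encodes the convertase that cuts many of these precursors in dense-core vesicles. Its DMR over 636 exonic bases, at chr2:143813178-143813960, was higher in control (5.28 against 3.85), and the other 2 were higher in MMS (-0.17 against 4.08, and 2.95 against 4.65). Ece1, an endopeptidase that degrades peptides within endosomes, had 2 higher in MMS (2.20 against 4.55, and -0.17 against 4.44) and 1 higher in control (4.53 against 2.58). Insr, the insulin receptor gene, had the same split, with 2 higher in MMS (-0.17 against 3.24, and 2.02 against 5.29) and 1 higher in control (4.97 against 1.05).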

How the data were processed

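The deposited table holds 12949 DMRs. Per the paper's methods and the submitters' notes, the authors used Torrent Suite to align Ion Proton reads of 6 meDIP libraries, 2 inputs and 1 IgG control to mm10, took broad peaks from MACS2 2.1 (with its human genome-size setting, per the methods, whose effect was not tested) and compared the groups with DiffBind and DESeq2. The deposited values are log2 means of normalised reads over all libraries, control (named untreated in the table) and MMS (named treated). The table also holds the authors' difference (control minus MMS), p-value and FDR, which were not used beyond checking that the difference matched the group means within 0.01 and that every region met 0.05. The methods give depth as a range over samples and tie none to a library, and the table holds no library's counts, which leaves the precision of each mean unknown, and no test was run. The methods also state normalisation to the pooled input of each group and subtraction of the IgG control.

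The members and lists were chosen with earlier results of these data known. Genes and exons were those of GENCODE M21. A group was at its lowest within 0.5 (log2) of the lowest mean in the table. Every gene with a DMR was named, and of the further list those with a promoter DMR and the most DMRs. CpG and repeats came from GRCm38, and alignments from BLAST 2.17.0. The pairing of regions with genes was tested on simulated data. The distance to a gene, the gene models, the smallest difference, the width and the lowest value were varied. Python 3.11.15, pandas 2.3.3 and pysam 0.24.0 were used.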

Additional observations from a re-analysis of the deposited data

How the results depend on the processing

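Of 34 alternatives, 21 kept the counts within 1.5 times of those reported, and 13 moved them further, all but 1 by the distance that ties a DMR to a gene. With the gene body alone, 8 genes had 9 DMRs, 2 of them higher in MMS and 1 with the lower group at its lowest value. With 2 kb on each side, 9 genes had 11 DMRs, 4 higher in MMS and 1 at the lowest value. With 50 kb, 35 genes had 59 DMRs, 36 (61%) higher in MMS and 16 at the lowest value. Leaving out the 5 DMRs that also align elsewhere, an alternative chosen after seeing the data, left 5 higher in MMS of 13. With a difference of at least 2, 8 of 12 (66.7%) were higher in MMS, beside 80.6% of all DMRs past the same limit, which removes mostly regions higher in control. RefSeq spans gave 15 genes and 18 DMRs again, with Agrp lost and Ghsr gained. The Ghsr region, with a difference of -3.93, then took the place of Npy5r (-2.58) as the largest difference higher in control.

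No paired analysis was possible because the values are group means, which also means that no library was left out. Each mean stands on 3 pools of unknown spread.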

Other observations

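Between 10 and 50 kb from genes with no nearer DMR lay 34 regions, at 20 of the 45 genes (44.4%), beside 36.5% of all protein-coding genes with none nearer. Of the 34, 23 (67.6%) were higher in MMS, beside 61.8% of the regions at those protein-coding genes. The lower group was at its lowest value in 11 (32.4%), beside 32.2%. These shares are near the background and were not tested. The 34 include the Npy5r region counted from Npy1r. Mc3r, a melanocortin receptor gene for energy balance, had 4 of them, 2 upstream and 2 downstream. Control was at -0.17 in all 4, and MMS had 4.59, 3.47, 4.09 and 4.43. Glp1r, the receptor gene of glucagon-like peptide, had 3 upstream that were all higher in MMS, with differences of 2.71, 2.70 and 1.52, the nearest 11686 bp before the gene and the first of them within Dnah8.

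Kiss1r, the kisspeptin receptor gene, had 3 higher in MMS, with differences of 2.81, 2.72 and 4.47, each within another gene (Med16 or Arid3a). Oxtr, the oxytocin receptor gene, had 2 downstream, at 17342 and 47658 bp, with 1.22 and 1.03 in control and 4.93 and 4.04 in MMS. Ntsr2 and Sstr3 differed the other way. The Ntsr2 regions had differences of -1.70 and -4.61, the latter within Greb1 and with MMS at its lowest value of -0.24, and the Sstr3 regions had -1.25 and -1.28. These regions were picked out after their values were seen.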
